A study of Mus musculus with 37 samples.

Results

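The step from the last day before birth to the newborn was examined in the lungs of B6 (C57BL/6J) mice, by comparing the group collected at E18.5 with the group collected on the day of birth, PN0. Groups were taken from the strain and time given for each sample, and 7 of the 37 arrays of the series belonged to the step: 4 at E18.5 and 3 at PN0. The arrays titled 2 and 2b at E18.5 were averaged, so that each group held 3 replicates. The labels do not say how array 2b relates to array 2. By the paper's methods each replicate was a litter, with the whole right lungs of 3 males pooled before the RNA was extracted. No treatment or introduced mutation is named for any animal. Earlier B6 groups (E15.5, E16.5 and E17.5) and A/J groups (E19.5, E20.5 and PN0) of the same kind, 3 litters each, served to show what came before the step and whether it was seen in a second strain. B6 pups are born about a day earlier than A/J pups, so the A/J step from E19.5 was set beside the B6 step from E18.5, and A/J at E20.5 lay within hours of birth. The A/J step also took in the hours from E20.5 to PN0. By the paper's sampling times it was thus some hours longer than the B6 step. With 3 litters a group, their number limits the precision. Levels are log2 values of Affymetrix Mouse Gene 1.0 ST arrays after RMA, on which a difference of 1 is a 2-fold change. A gene is written as having risen or fallen where limma gave an adjusted p under 0.05 and the change was at least 1.5-fold.

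At birth the lung turns from a liquid-filled organ in low oxygen, fed through the placenta, into an air-filled one with full blood flow. Liquid is absorbed through sodium channels and pumps of the epithelium, surfactant made ahead by type II alveolar cells lowers the surface tension, and the rise in oxygen ends the signal of the hypoxia-inducible factors. The pup also passes through a surge of glucocorticoids and catecholamines and a fast before suckling, during which it lives on stored glycogen and on fat.

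The lung markers were high in every one of the 7 arrays. The mean over 7 type II cell markers was 11.87 to 12.12 at E18.5 and up to 12.05 at PN0, and that over 4 club cell markers, genes of the secretory cells of the airway, was 11.61 to 11.94 and 11.99 to 12.12. Markers of the esophagus stayed at means of 5.47 to 6.07 and 5.63 to 5.77, those of liver at 5.87 to 6.43 and 6.27 to 6.65, and those of cardiac muscle at 8.18 to 8.61 and 8.51 to 8.76. The 3 PN0 arrays correlated with each other at r = 0.989 to 0.990 over all probe sets, whereas the array titled 2 at E18.5 reached 0.976 to 0.988 with the others of its group. In that array the mean over 5 mesenchyme markers was 11.70, against 11.25 to 11.43 in the other arrays at E18.5 and 10.93 to 11.00 at PN0. Some A/J arrays had higher levels of markers of other tissues. Their esophagus means were 5.55 to 7.26 at E19.5 and 5.65 to 7.27 at PN0. Their liver means were 5.80 to 7.17 at E19.5 and 5.58 to 5.71 at PN0. The part of such tissue in the differences between the strains was not tested.

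Of 19938 genes with a probe set of their own, 608 rose (3.05%) and 672 fell (3.37%) from E18.5 to PN0, 6.42% in all. At least 2-fold changes were seen in 157 genes that rose and 90 that fell, and at least 4-fold changes in 15 and 2. The replicates of both groups did not overlap in 1269 of the 1280 called genes, and in 34.6% of all genes. The balance of directions depended on the scaling: with each array centred on its median, which moved every change up by 0.085, 869 genes rose and 462 fell, so that 65.3% of the called genes were rises in place of 47.5% (49.9% after quantile normalization). By comparison, the B6 steps before birth called 551 genes from E15.5 to E16.5 (2.76%), 583 from E16.5 to E17.5 (2.92%) and 900 from E17.5 to E18.5 (4.51%). The plot of called shares by gene list shows where these genes lay.

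**Figure D1:**
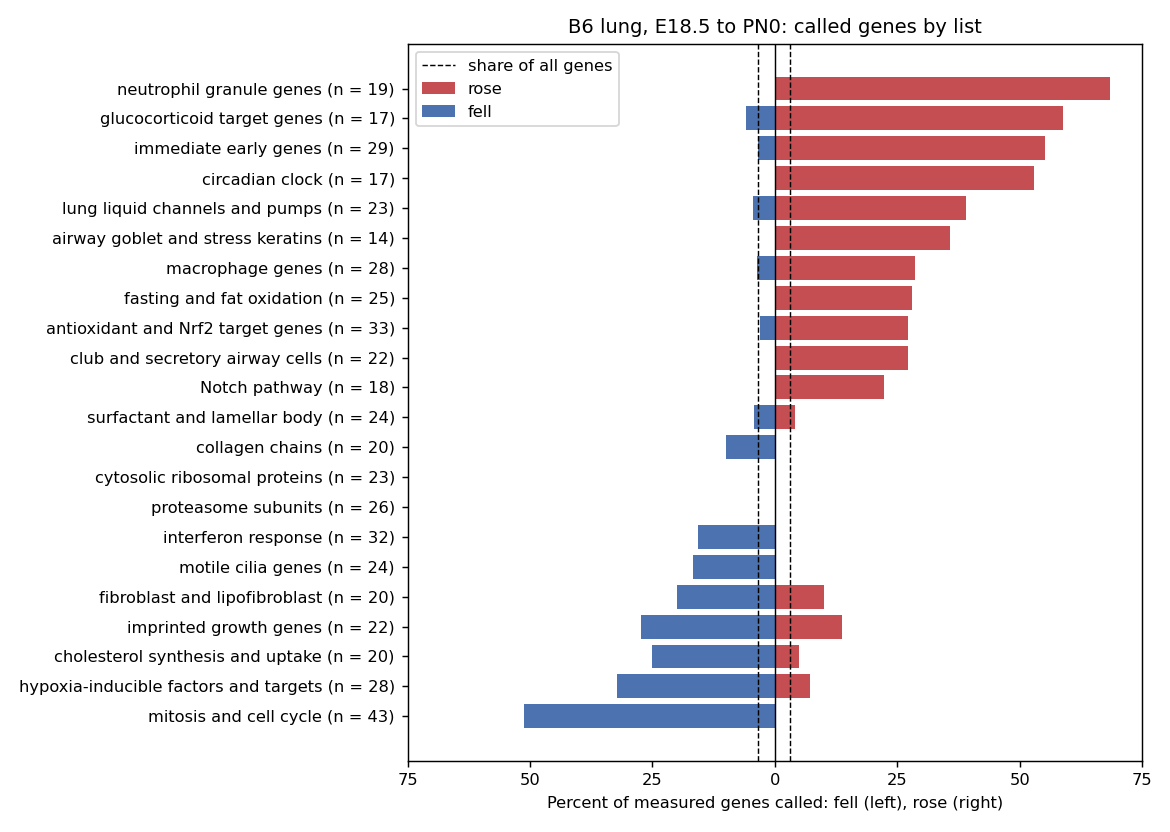
Share of the measured genes of each list (n in brackets) that rose (bars to the right) or fell (bars to the left) from E18.5 to PN0 in B6 lung, in percent, with dashed lines at the 3.05% and 3.37% of all genes. Neutrophil granule genes, glucocorticoid targets, immediate early genes and clock genes reach furthest to the right, and mitosis genes furthest to the left.

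The steepest rise was that of Serpina3n, an acute phase protease inhibitor. Its level was 6.12, 6.11 and 6.27 in the replicates at E18.5 and 9.81, 9.48 and 9.60 at PN0, a change of 3.46 ± 0.23 (SE) or 11.0-fold (adjusted p = 3.0e-12). The groups lay far apart, with every newborn replicate at least 3 log2 units above every fetal one. Most of the other leading genes belong to the granules and the surface of neutrophils, the white blood cells that reach an inflamed tissue first.

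Ngp, a protein of neutrophil granules, went from 6.49, 6.22 and 6.56 to 9.15, 9.33 and 9.59, a 7.63-fold rise (2.93 ± 0.18). Retnlg, a resistin-like protein of neutrophils, went from 6.05, 5.66 and 6.09 to 8.93, 8.49 and 8.45, or 6.45-fold. Il1r2, the decoy receptor of interleukin 1, went from 5.24, 4.96 and 5.36 to 7.98, 7.70 and 7.79, or 6.23-fold. In each the fetal replicates stayed within 1 unit of each other and the newborn replicates stood well above them. S100a9 and S100a8, which form the calcium-binding protein calprotectin, rose by 2.38 ± 0.12 and 2.17 ± 0.17, the collagenase Mmp8 by 2.26 ± 0.14, and the stefins Stfa3 and Stfa2 by 2.10 ± 0.16 and 2.09 ± 0.14. Ifitm6, a membrane protein of myeloid cells, rose by 2.15 ± 0.18. Cxcr2, the chemokine receptor that draws neutrophils into tissue, was at 4.45, 4.83 and 5.40 at E18.5 and at 7.27, 6.77 and 6.68 at PN0, a 4.03-fold rise.

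As a list, 13 of 19 measured neutrophil genes rose and none fell, and the median change was 1.38 against -0.01 over all genes. The mean over the list was 5.74 to 6.00 in the arrays at E18.5 and 7.20 to 7.33 at PN0. The genes that did not pass included Mpo, Elane and Prtn3, enzymes made at early bone marrow stages, with changes of 0.30 ± 0.20, 0.29 ± 0.13 and 0.14 ± 0.13, and Camp, a late granule peptide, with 0.50 ± 0.11. Since the RNA came from whole lung, more neutrophils and more RNA per neutrophil cannot be told apart. The 14 measured erythroid genes, markers of red blood cell precursors, gave no call in either direction by limma (2 were lower and none higher at an adjusted p under 0.05 without the limit on fold), with array means of 6.68 to 6.94 at E18.5 and 6.78 to 6.89 at PN0.

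Of 28 macrophage genes 8 rose and 1 fell, with a median change of 0.30. The rises included Chil3, a chitinase-like protein of alveolar macrophages (4.27, 4.13 and 4.69 to 6.28, 6.44 and 6.22, or 3.86-fold). Chil3 is also counted among the 13 neutrophil rises, and Fabp4, another of the 8, is counted with the fasting genes too. Itgam, an integrin chain shared with neutrophils, rose by 1.30 ± 0.13, and Cd14, a receptor for bacterial lipopolysaccharide, rose by 1.06 ± 0.15. The fall was that of Cx3cr1, at -0.59 ± 0.09, just at the limit on fold. It was no longer called without E18.5 replicate 1 (-0.57) or 3 (-0.55), without PN0 replicate 1 or 2 (-0.56 each), or with centred arrays (-0.50). The chemokines Ccl6, Cxcl16 and Ccl9 rose by 1.68 ± 0.17, 1.33 ± 0.14 and 1.19 ± 0.12.

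**Figure D2:**
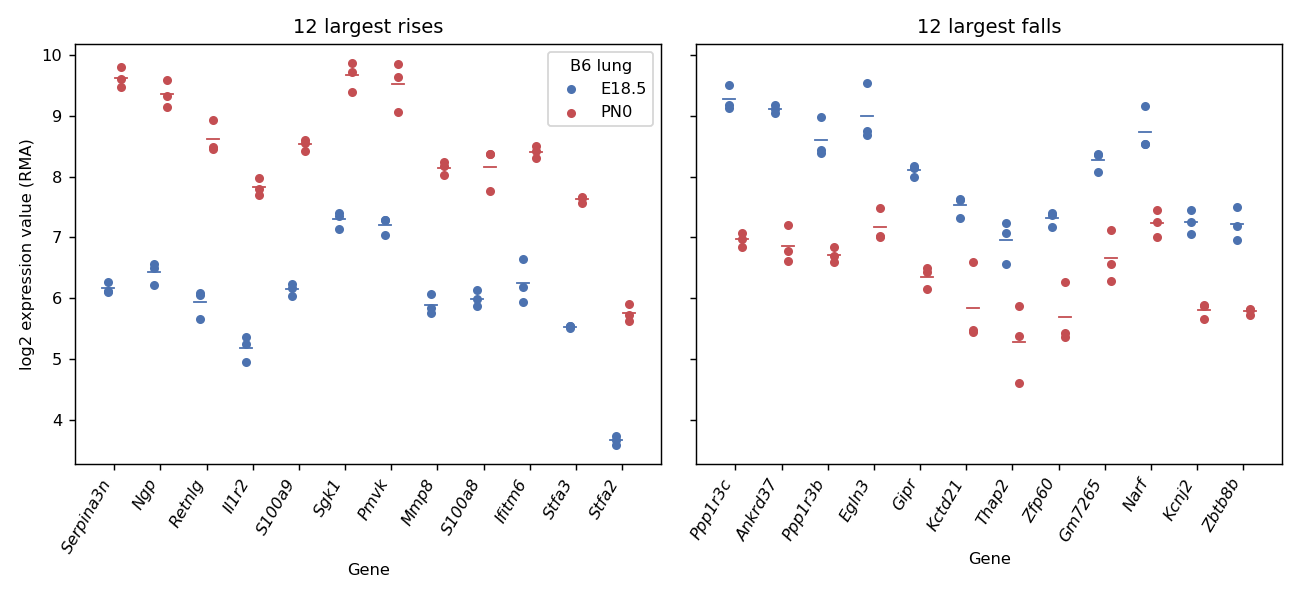
The 12 largest rises and the 12 largest falls from E18.5 to PN0 in B6 lung, as log2 values: each point is a replicate, 3 in each group. Only called genes whose replicates at E18.5 and PN0 do not overlap could enter, so the gap seen in every gene follows from the choice.

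Immediate early genes, which are switched on within minutes of a stimulus without new protein, gave mostly rises: 16 of 29 rose and 1 fell, with a median change of 0.70. Dusp1, a phosphatase that shuts down MAP kinases, was at 10.18, 9.76 and 10.04 at E18.5 and at 11.73, 12.03 and 12.01 at PN0, a 3.81-fold rise. Klf4, a zinc finger factor of epithelia and vessel walls, went from 8.81, 8.40 and 8.55 to 10.19, 10.53 and 10.57, or 3.59-fold. Fos, a subunit of the AP-1 factor, went from 7.03, 6.88 and 7.15 to 8.85, 8.37 and 8.54, or 2.96-fold. All 3 were higher in every newborn litter. Ccn1, a matrix protein induced by growth factors and stretch, rose by 1.60 ± 0.16 and Atf3, a stress factor, by 1.51 ± 0.14, while the change of Egr1 was 0.26 ± 0.12 (adjusted p = 0.12). The member that fell was Gadd45b, at -0.78 ± 0.17.

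Upstream of Dusp1 lie a cyclic AMP response element, TGACGTCA, and an E-box, CACGTG, here in capitals (RefSeq, GRCm38.p6, chr17:26508578-26508637, minus strand).
Dusp1: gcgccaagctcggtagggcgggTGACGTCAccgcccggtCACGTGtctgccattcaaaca

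Glucocorticoid targets rose in 10 of 17 and fell in 1, with a median change of 0.90. Sgk1, a kinase that keeps sodium channels at the cell surface, was at 7.40, 7.14 and 7.36 at E18.5 and at 9.40, 9.87 and 9.73 at PN0, a 5.16-fold rise. Klf9, a transcription factor induced by cortisol, went from 8.96, 8.98 and 9.10 to 9.88, 10.32 and 10.31, or 2.23-fold. Errfi1, an inhibitor of the EGF receptor, rose by 1.20 ± 0.13, Mt2, a metallothionein, by 0.90 ± 0.20 and Lcn2, an iron-siderophore binding protein also found in neutrophils, by 0.99 ± 0.19. The classical targets Fkbp5 and Tsc22d3 remained below the limit on fold, with changes of 0.56 ± 0.18 and 0.50 ± 0.14. Of the 10 rises, 7 are of genes counted in other lists as well: Per1 (clock), Dusp1 (immediate early), Sgk1 (liquid transport), Mt2 (antioxidant), Pdk4 and Angptl4 (fasting) and Lcn2 (neutrophil). The fall, that of Hif3a, is counted with the hypoxia genes too.

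Of 17 measured genes of the circadian clock 9 rose and none fell, with a median change of 0.61. From E17.5 to E18.5, when 2.83% of all genes rose, 4 of the 17 rose. Nr1d1, the repressor REV-ERB alpha, was at 7.59, 7.67 and 7.51 at E18.5 and at 8.48, 9.63 and 9.46 at PN0, a 3.03-fold rise. Per1, a repressor of the core loop, was at 9.25, 9.13 and 9.20 and then at 9.91, 10.51 and 10.49, or 2.16-fold. Ciart, a further repressor of the loop, was at 6.70, 6.54 and 6.14 and then at 6.93, 7.87 and 7.76, or 2.09-fold. In all 3 the first newborn litter lay between the fetal litters and the other 2 newborn litters. Nr1d2 rose by 0.96 ± 0.14 and Nfil3 by 0.95 ± 0.16. An activator of the loop was also among the rises, as Arntl, the activator BMAL1, rose by 0.69 ± 0.10 (0.57, under the limit on fold, without E18.5 replicate 2). Dbp and Tef, output factors of the clock, changed by -0.29 ± 0.13 and -0.30 ± 0.09, and Clock by -0.01 ± 0.08. The hour of the day at which litters were collected is not given in the sources used here.

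The stretch upstream of Ciart holds 3 E-boxes, CACGTG, the letters that CLOCK and BMAL1 bind (chr3:95882259-95882358, minus strand).
Ciart: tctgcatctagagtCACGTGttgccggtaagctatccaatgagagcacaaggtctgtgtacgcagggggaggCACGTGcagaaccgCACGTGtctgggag

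Genes of fasting and fat oxidation rose in 7 of 25 and fell in none, with a median change of 0.23. Angptl4, a secreted inhibitor of lipoprotein lipase, was at 7.04, 6.70 and 6.90 at E18.5 and at 8.60, 7.93 and 8.55 at PN0, a 2.79-fold rise. Pdk4, the kinase that closes pyruvate dehydrogenase during a fast, went from 7.27, 7.66 and 7.61 to 9.16, 8.63 and 8.81, or 2.56-fold. Cpt1a, which carries fatty acids into mitochondria, rose by 0.82 ± 0.08 and Acot1, an acyl-CoA thioesterase, by 0.79 ± 0.12.

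Antioxidant genes rose in 9 of 33 and fell in 1, with a median change of 0.35. Gclc, the catalytic subunit of the first enzyme of glutathione synthesis, was at 8.72, 8.61 and 8.97 at E18.5 and at 10.48, 11.03 and 10.29 at PN0, a 3.57-fold rise. Hmox1, heme oxygenase 1, and Gsta3, a glutathione transferase, each rose by 0.93 ± 0.14. The member that fell was Nfe2l2, the factor NRF2 that activates many genes of this list: it was at 10.29, 10.39 and 10.37 at E18.5 and at 10.21, 8.97 and 9.12 at PN0 (-0.92 ± 0.16), so that the first newborn litter stayed next to the fetal level. Among the heat shock and folding genes, 2 of 20 rose and 3 fell. Hspb1, a small heat shock protein, rose by 1.63 ± 0.12, while Pdia4, a disulfide isomerase of the endoplasmic reticulum, had a change of -0.75 ± 0.09 on the probe set used and of -0.32 on its other one. Cirbp, an RNA-binding protein induced by cold, was at 9.23, 9.04 and 9.45 and then at 10.72, 10.86 and 10.92, a 3.02-fold rise.

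Of 23 liquid transport genes 9 rose and 1 fell, with a median change of 0.18. The sodium channel subunit Scnn1a was at 10.33, 10.17 and 10.49 at E18.5 and at 11.05, 11.15 and 11.10 at PN0 (0.77 ± 0.15). The gamma subunit Scnn1g rose by 0.77 ± 0.11, and Atp1b1, the beta subunit of the sodium pump, by 0.79 ± 0.11. Aqp5, a water channel of type I cells, went from 9.02, 8.56 and 9.24 to 9.98, 10.25 and 10.17, a 2.28-fold rise. The vessel wall water channel Aqp1 rose by 0.74 ± 0.12. Cldn4, a tight junction protein that limits leak of liquid back into the air space, was at 9.11, 8.89 and 8.83 and then at 10.39, 11.12 and 11.03, or 3.74-fold. Slc26a9, a chloride channel of the airway, was at -0.65 ± 0.11 and passed under the limit on fold with centred arrays (-0.57).

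Of 24 surfactant and lamellar body genes 10 rose from E17.5 to E18.5, when 2.83% of all genes rose. At birth 1 rose and 1 fell, with a median change of 0.05. The surfactant protein genes Sftpa1, Sftpb and Sftpc changed by 0.14 ± 0.16, 0.12 ± 0.17 and 0.06 ± 0.09, and none passed the test. The rise was that of Sftpd, the host defense collectin, from 10.06, 9.63 and 10.16 to 10.98, 11.05 and 11.01 (2.09-fold). The fall was that of Fasn, fatty acid synthase, at -0.62 ± 0.10, which passed under the limit on fold with centred arrays (-0.53). Of 21 type I cell genes 1 rose (Aqp5) and 2 fell. Pdpn, the surface protein podoplanin, was at 10.58, 10.05 and 10.48 and then at 9.47, 9.43 and 9.65 (-0.85 ± 0.11). Akap5, a scaffold for protein kinase A, was at 11.20, 11.48 and 11.31 and then at 10.37, 9.91 and 10.81 (-0.97 ± 0.14).

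In the airway, 6 of 22 club and secretory cell genes rose, among them the iron-binding protein Ltf (1.75 ± 0.19, also a neutrophil granule protein), the secretoglobin Scgb3a1 (0.83 ± 0.13) and the retinal dehydrogenase Aldh1a1 (0.77 ± 0.11). Scgb1a1, the main secretoglobin, did not pass (0.82 ± 0.41, adjusted p = 0.15). Of 14 goblet and stress keratin genes 5 rose and none fell, including the cornified envelope gene Sprr1a (1.16 ± 0.24) and the EGF receptor ligand Hbegf (0.78 ± 0.09). The motile cilia list ran the other way, with 4 of 24 falling, none rising and a median change of -0.26. Ccdc39, which sets the spacing of the axoneme, was at 7.85, 7.88 and 7.85 at E18.5 and at 7.03, 7.07 and 7.25 at PN0 (-0.74 ± 0.11), and Zmynd10, a dynein arm assembly factor, was at 7.53, 7.50 and 7.50 and then at 6.71, 6.70 and 6.92 (-0.73 ± 0.12). The change of Foxj1, the master factor of ciliated cells, was 0.06 ± 0.13.

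Targets of the hypoxia-inducible factors were among the steepest falls. Ankrd37, an ankyrin repeat protein induced in low oxygen, was at 9.11, 9.18 and 9.05 at E18.5 and at 7.21, 6.78 and 6.61 at PN0, a 4.75-fold fall (-2.25 ± 0.20). Egln3, a prolyl hydroxylase that marks the factors for breakdown and is itself their target, went from 8.76, 9.55 and 8.68 to 7.48, 7.03 and 7.01, or 3.54-fold lower. Hif3a, an inhibitory member of the factor family, went from 9.71, 10.01 and 9.75 to 9.05, 8.52 and 8.55, or 2.17-fold lower. The newborn values of all 3 lay below every fetal value, with the first newborn litter again nearest to the fetal ones. Epas1, the factor HIF-2 alpha of endothelium and type II cells, rose from 10.25, 9.90 and 10.41 to 11.28, 11.33 and 11.44 (2.24-fold), whereas Hif1a changed by 0.07 ± 0.08. Over the list, 9 of 28 fell and 2 rose (Epas1 and the kinase-phosphatase Pfkfb3, 0.71 ± 0.13), with a median of -0.33. Without E18.5 replicate 2, 5 in place of 9 fell. The classical targets Vegfa, Bnip3 and Car9 were not called, with changes of -0.55 ± 0.09, 0.07 ± 0.17 and -0.07 ± 0.10.

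The promoter of Ankrd37 is shown because the gene was the steepest fall of the list. In capitals are the cores of hypoxia response elements, ACGTG or GCGTG on either strand, in the 250 bases before the start (chr8:45999851-46000100, minus strand). The longer run of capitals holds a pair of overlapping matches, one on each strand.
Ankrd37: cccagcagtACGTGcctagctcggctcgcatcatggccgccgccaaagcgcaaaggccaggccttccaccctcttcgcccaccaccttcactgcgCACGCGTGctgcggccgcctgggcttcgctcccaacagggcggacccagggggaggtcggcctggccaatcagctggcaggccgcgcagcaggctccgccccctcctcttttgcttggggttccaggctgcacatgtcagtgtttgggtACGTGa

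Genes of glycogen and of glycolysis were counted over 2 lists that were written after their values were seen. Ppp1r3c and Ppp1r3b, which bring protein phosphatase 1 to glycogen and so favour its synthesis, were both among the 3 steepest falls of all genes. Ppp1r3c was at 9.13, 9.51 and 9.18 at E18.5 and at 7.07, 6.98 and 6.85 at PN0, a 4.95-fold fall. Ppp1r3b went from 8.44, 8.98 and 8.39 to 6.85, 6.59 and 6.69, or 3.71-fold lower. Enzymes of both synthesis and breakdown fell: the synthase Gys1 had a change of -1.04 ± 0.10 and the phosphorylases Pygm and Pygl had changes of -0.75 ± 0.10 and -0.74 ± 0.08. In all, 7 of 25 glycogen genes fell and none rose, with a median change of -0.25. Of 20 glycolysis genes 7 fell and 1 rose. The list shares 9 genes with the hypoxia targets, of which 3 fell and 1 rose, and among the other 11 genes 4 fell and none rose. Pfkl, liver-type phosphofructokinase, went from 8.94, 9.38 and 9.04 to 7.48, 7.82 and 7.87, or 2.63-fold lower. Aldoc, an aldolase, had a change of -1.02 ± 0.11 and Pgam1, a mutase, one of -0.73 ± 0.09. Without E18.5 replicate 2, 4 in place of 7 glycolysis genes fell.

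Other steep falls had no list in common. Gipr, the receptor of the gut hormone GIP, went from 7.99, 8.18 and 8.15 to 6.43, 6.49 and 6.15, a 3.36-fold fall. Kcnj2, an inward rectifier potassium channel, went from 7.06, 7.25 and 7.46 to 5.89, 5.66 and 5.88, or 2.73-fold lower. Kctd21, Thap2, Narf and Gm7265 had changes of -1.69 ± 0.18, -1.68 ± 0.22, -1.50 ± 0.12 and -1.61 ± 0.19.

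Of 43 mitosis and cell cycle genes 22 fell and none rose, with a median change of -0.59. At E18.5 the mean over the list was 7.87 and 7.90 in arrays 2 and 2b, and 7.65 and 7.53 in arrays 1 and 3. At PN0 it was 7.10 to 7.16. From E16.5 to E17.5 39 of the 43 fell, and from E17.5 to E18.5 36, where 1.54% and 1.69% of all genes fell. Bub1, a spindle checkpoint kinase, was at 7.01, 7.84 and 7.20 at E18.5 and at 6.24, 6.46 and 6.37 at PN0 (-0.99 ± 0.17). E2f1, which drives entry into S phase, was at 7.39, 7.22 and 7.43 and then at 6.19, 6.59 and 6.36 (-0.97 ± 0.11). Hells, a helicase of replicating chromatin, had a change of -0.91 ± 0.15. Top2a gave -0.88 ± 0.21 on the probe set used and 0.06 on its other one. From A/J E19.5 to PN0 14 of the 43 fell and none rose, with a median of -0.42. From A/J E20.5, within hours of birth, to PN0 none fell and 1 rose, with a median of 0.16. In these A/J comparisons 1.7% and 1.68% of all genes fell.

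Mesenchyme and matrix genes moved both ways. In the fibroblast list 4 of 20 fell and 2 rose. Meox2, a homeobox gene of lung fibroblasts and vessels, was at 9.52, 9.43 and 9.70 at E18.5 and at 8.65, 7.92 and 8.44 at PN0 (2.32-fold lower), and Vcam1, an adhesion molecule, was at 9.50, 9.59 and 9.49 and then at 8.58, 8.59 and 8.74. Wnt2, a ligand made by distal mesenchyme, had a change of -0.89 ± 0.12. Inmt, a methyltransferase of late fibroblasts, rose from 10.05, 9.56 and 11.04 to 11.97, 11.60 and 12.06 (3.16-fold). The part of the mesenchyme markers, which were lower in all PN0 arrays, in these falls was not tested. In the matrix, Fbn2, the fetal fibrillin, had a change of -0.91 ± 0.16, Emilin1 one of -0.67 ± 0.07 and Col6a3 one of -0.79 ± 0.10, while elastin, Eln, and the basement membrane chain Col4a1 changed by -0.07 ± 0.10 and 0.03 ± 0.07. In all, 2 of 20 collagen chains fell and none rose. Contractile genes rose in 3 of 20 and fell in 1, the rises including desmin, Des (1.07 ± 0.14), and calponin, Cnn1 (1.59 ± 0.21).

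In the signalling list 5 of 49 genes rose and 6 fell. The BMP targets Id1 and Smad6 rose, Id1 from 8.24, 8.13 and 8.33 to 9.87, 9.63 and 9.70 (2.83-fold) and Smad6 by 1.02 ± 0.11. Of the ligands, Bmp2 rose from 6.70, 6.64 and 7.01 to 8.04, 7.92 and 7.89 (2.24-fold), whereas Bmp4 went from 9.23, 9.17 and 9.38 to 8.31, 8.19 and 8.24 (2.02-fold lower). In the hedgehog pathway the ligand Shh had a change of -0.67 ± 0.10 and the inhibitor Hhip, itself a target, one of -0.99 ± 0.10. Fgfr4 had a change of -0.79 ± 0.10, and Spry1, a feedback inhibitor of Fgf signals, rose by 0.99 ± 0.09. In the Notch list 4 of 18 rose and none fell: the ligand Dll1 (0.84 ± 0.11) and the targets Hey1 (0.79 ± 0.12), Heyl (0.70 ± 0.10) and Hey2 (0.68 ± 0.14). Of 27 endothelial genes 4 rose and none fell, among them Sema3c, a guidance ligand (0.79 ± 0.08), and Ackr3, a scavenger receptor for Cxcl12 (0.86 ± 0.13).

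Several lists gave few calls or none. By limma, no gene of 23 cytosolic ribosomal proteins, 26 proteasome subunits or 19 fetal program genes was called. At an adjusted p under 0.05 without the limit on fold, 1 ribosomal protein gene was higher and 2 lower, 12 proteasome genes were higher and none lower, and 1 fetal program gene was higher and 2 lower. Respiratory chain subunits gave 1 rise in 37 and splicing factors 1 rise and 1 fall in 25. Of 22 imprinted growth genes 3 rose and 6 fell: Peg3 rose from 9.61, 9.80 and 9.66 to 10.68, 10.71 and 10.57, and Nnat, neuronatin, went from 10.24, 9.97 and 10.13 to 9.29, 9.33 and 9.08. With centred arrays, or without E18.5 replicate 2, 3 in place of 6 fell.

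A further question was which genes turned round at birth. From E15.5 to E18.5, 2083 genes rose (10.4%) and 1979 fell (9.93%), 20.4% in all. Of these, 150 rose and then fell at PN0 (0.752% of all genes) and 47 fell and then rose (0.236%). Both changes use the arrays at E18.5, and an error there moves them in opposite directions, so the counts were repeated with the trend from E15.5 to E17.5, which shares no array with the step (1143 rose, 5.73%, and 1377 fell, 6.91%, or 12.6% in all); 126 genes then rose and fell, and 50 fell and rose. The balance of both directions also depended on the scaling: with each array centred on its median 107 genes rose and then fell and 74 fell and then rose. Of the 150 genes, 113 were called in the same direction up to E17.5 already, as were 37 of the 47. The highest mean of the 150 lay at E18.5 in 129 and at E17.5 in 21. The choice of the genes favours a peak at E18.5, since both calls rest on the mean at that time.

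How far the genes turned back varied, and the shares undone rest on the same E18.5 arrays that chose the genes. Among the 150, PN0 undid a median of 71.1% of the prenatal rise: 41 genes were back at or below their E15.5 mean, and 49 were still called above it. Among the 47, PN0 undid a median of 87.7% of the prenatal fall, with 18 back at or above the E15.5 mean and 7 still called below it. The contrasts that chose these genes hold no A/J litter, although A/J litters share in the estimate of the spread; in a fit of the 5 B6 groups only, the counts were 151 and 47. From A/J E19.5 to PN0, 67 of the 150 fell and none rose (1.7% of all genes fell in that comparison), and 139 had an estimate below 0. Of the 47, 21 rose and none fell (2.32% of all genes rose), and all 47 estimates were above 0.

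Ankrd37 had the clearest turn of the first kind, with B6 means of 7.22, 7.54, 7.99 and 9.11 from E15.5 to E18.5 and 6.87 at PN0, so that 119% of the rise was undone. Egln3 had means of 7.75, 8.35 and 8.45 up to E17.5 and of 7.17 at PN0, around the E18.5 levels given above, and Gipr 6.18, 6.62, 7.58 and 8.11 and then 6.36. Cavin4, a caveolar protein of muscle, had means of 5.94, 6.02, 6.69 and 7.56 and then 6.36. All 4 climbed at every step before birth. In A/J their levels at PN0 were again below those at E19.5, from 9.60 to 7.35 for Ankrd37, 9.31 to 7.41 for Egln3, 8.12 to 6.16 for Gipr and 7.75 to 6.38 for Cavin4. Zbtb8b, a zinc finger gene, and Clec2d, a lectin-like ligand of an immune cell receptor, had changes of -1.43 and -1.27 after rises of 1.24 and 1.72.

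Of the genes that fell and then rose, Slc38a4, an amino acid transporter of liver and placenta, had means of 10.51, 10.04, 9.51 and 8.49 and then 10.10 at PN0. Thbs1, thrombospondin 1, an activator of latent TGF beta, had means of 11.66, 11.40, 10.99 and 10.30 and then 11.75, and Cnn1 8.08, 7.01, 6.91 and 6.88 and then 8.47. Their newborn replicates lay above all those of E18.5, by at least 1 log2 unit in each gene. Tnfaip6, a hyaluronan-binding protein of inflamed tissue, and Id3, an inhibitor of helix-loop-helix factors, rose by 1.58 ± 0.15 and 0.92 ± 0.10. Of the 47 genes, 5 were among the 44 ribosome biogenesis genes (a list written after the values were seen), among them Rrs1, from 7.85, 7.59 and 7.62 to 8.66, 8.63 and 8.78, Nufip1 (0.89 ± 0.11) and Pno1 (0.89 ± 0.14).

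**Figure D3:**
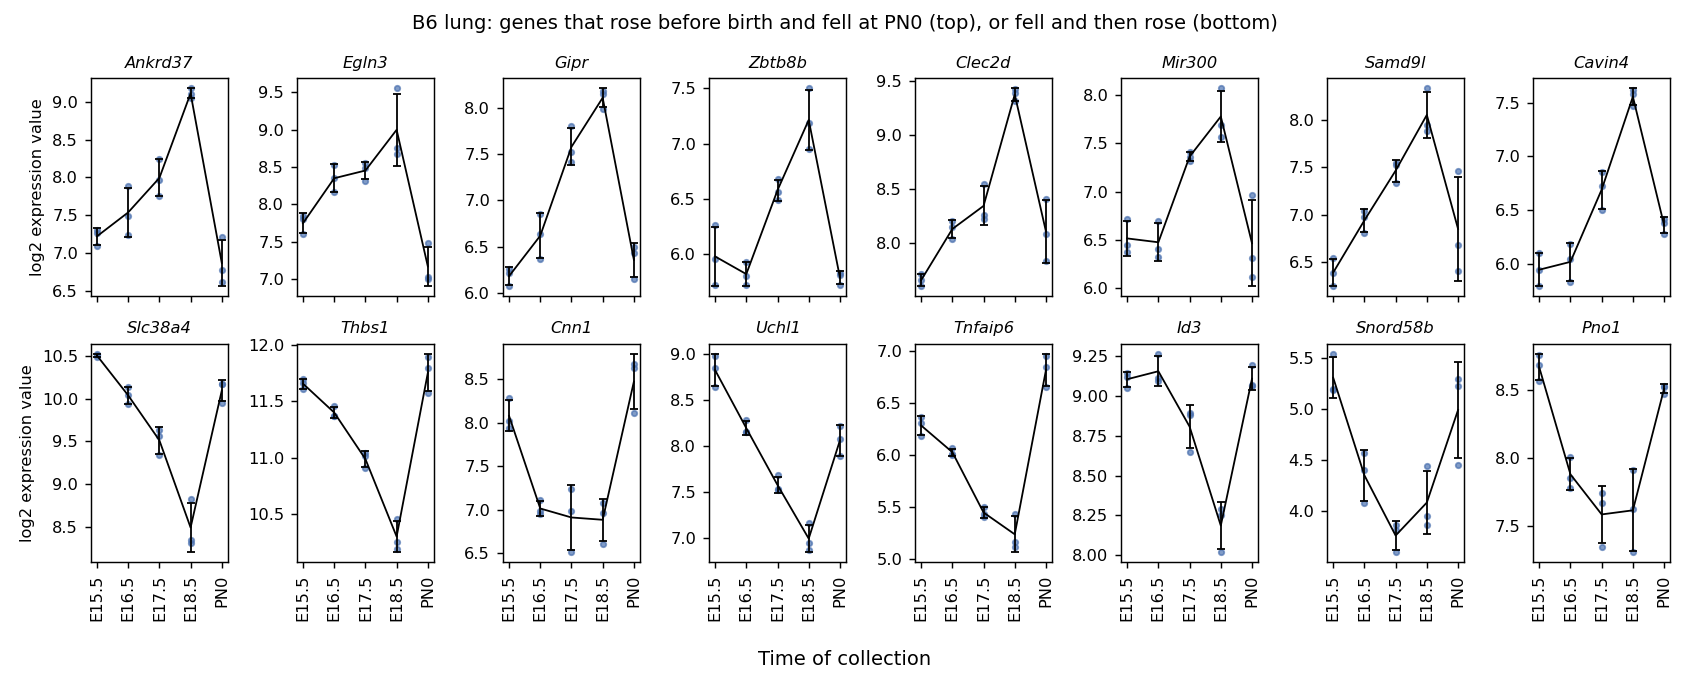
B6 lung means (lines) with SD (bars, n = 3 litters) of 16 genes at the 5 collection times of the strain, as log2 values, each panel on its own scale. The upper 8 genes rose up to E18.5 and were lower at PN0, and the lower 8 fell and were higher at PN0.

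The lists with at least 4 genes that rose and then fell were hypoxia targets (5 genes), interferon response genes (4), cilia genes (4), fatty acid and phospholipid genes (4) and glycogen genes (4). Of 32 interferon genes 17 had risen from E17.5 to E18.5 (2.83% of all genes rose), and 5 fell at birth with none rising. Parp14, an ADP-ribosyltransferase, had means of 5.71, 6.27, 6.86 and 8.17 and then 7.38, so that 32.0% of its rise was undone, and Oasl2, an antiviral protein, had means of 6.30, 6.60, 7.14 and 8.51 and then 7.68. Iigp1, an interferon-induced GTPase, went from 8.23, 8.45 and 8.63 to 7.66, 7.27 and 7.25 without a prenatal rise. The number of interferon genes that fell dropped from 5 to 3 without E18.5 replicate 3 or PN0 replicate 3, and with centred or quantile normalized arrays.

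MicroRNA genes gave 3 clusters with at least 3 calls, out of 12 clusters with at least 3 measured genes (hairpins within 10 kb of each other; 258 of 300 measured miRNA genes were matched to a RefSeq hairpin by symbol). The probe sets read RNA of the hairpin region, so that the values stand for the primary or precursor transcript and not for the mature miRNA. In all, 11 of the 300 miRNA genes rose and 24 fell, where 3.05% of all genes rose and 3.37% fell. Outside those 3 clusters 3 rose and 7 fell. The cluster from Mir17 (chr14:115043671-115044506, plus strand), known for promoting proliferation in the embryonic lung, and the cluster from Mir23a (chr8:84208518-84208921, plus strand) rose, and the cluster from Mir379 in the imprinted Dlk1-Dio3 region (chr12:109709060-109747960, plus strand) fell. The mature sequences made from the members that the results turn on are shown with the seed, bases 2 to 8, in capitals. In the Mir17 cluster miR-17-5p and miR-20a-5p share 1 seed and miR-19a-3p and miR-19b-3p share another.
miR-17-5p: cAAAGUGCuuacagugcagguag
miR-20a-5p: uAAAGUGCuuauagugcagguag
miR-18a-5p: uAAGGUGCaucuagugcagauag
miR-19a-3p: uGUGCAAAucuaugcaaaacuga
miR-19b-3p: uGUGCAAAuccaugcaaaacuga
miR-23a-3p: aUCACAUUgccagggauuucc
miR-27a-3p: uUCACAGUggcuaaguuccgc
miR-300-3p: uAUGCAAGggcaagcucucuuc
miR-380-3p: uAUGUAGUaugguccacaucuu
miR-495-3p: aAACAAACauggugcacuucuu
miR-369-3p: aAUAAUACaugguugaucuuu

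All 5 measured genes of the Mir17 cluster rose, by 0.90 to 1.86 with a median of 1.31. Mir20a was at 5.04, 4.68 and 5.18 at E18.5 and at 6.39, 6.90 and 6.97 at PN0, a 3.45-fold rise, and Mir19b-1 at 5.34, 5.02 and 5.52 and then at 6.99, 7.26 and 7.20, or 3.62-fold. In A/J none of the 5 was called from E19.5 to PN0 (median 0.46), and the steps of Mir20a and Mir19b-1 differed between the strains, by 1.25 (adjusted p = 0.029) and 1.39 (adjusted p = 0.043), where 3.03% of all genes differed. In the Mir23a cluster Mir27a went from 7.18, 6.85 and 7.24 to 8.83, 8.70 and 8.69, or 3.14-fold higher, and Mir23a from 6.82, 6.34 and 6.82 to 8.12, 8.11 and 8.19, or 2.79-fold; in A/J the changes were 1.64 and 1.42.

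In the Mir379 cluster 17 of 29 measured genes fell, none rose and all 29 estimates were below 0, with a median change of -0.70. Mir380 was at 6.78, 7.14 and 7.67 at E18.5 and at 6.42, 5.46 and 5.49 at PN0 (2.65-fold lower), and Mir300 at 7.57, 7.70 and 8.07 and then at 6.97, 6.31 and 6.12 (2.48-fold lower). Mir369 and Mir495 had changes of -1.03 ± 0.26 and -1.06 ± 0.22. In each the first newborn litter was nearest to the fetal values. The members are read from a shared primary transcript and are no independent measurements, and without E18.5 replicate 3 the number that fell was 10. Up to E18.5 15 of the 29 had risen, and 12 reversed. From A/J E19.5 to PN0 23 of the 29 fell, with a median of -0.88. Of the longer transcripts of the region, Meg3 changed by 0.16 ± 0.14 and the protein-coding Dlk1 by -0.09 ± 0.06. In a second miRNA cluster of the region, from Mir770 to Mir136 (chr12:109563692-109595388, plus strand), 1 of 8 measured genes fell, 7 estimates were below 0 and 1 above, and the median change was -0.26.

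**Figure D4:**
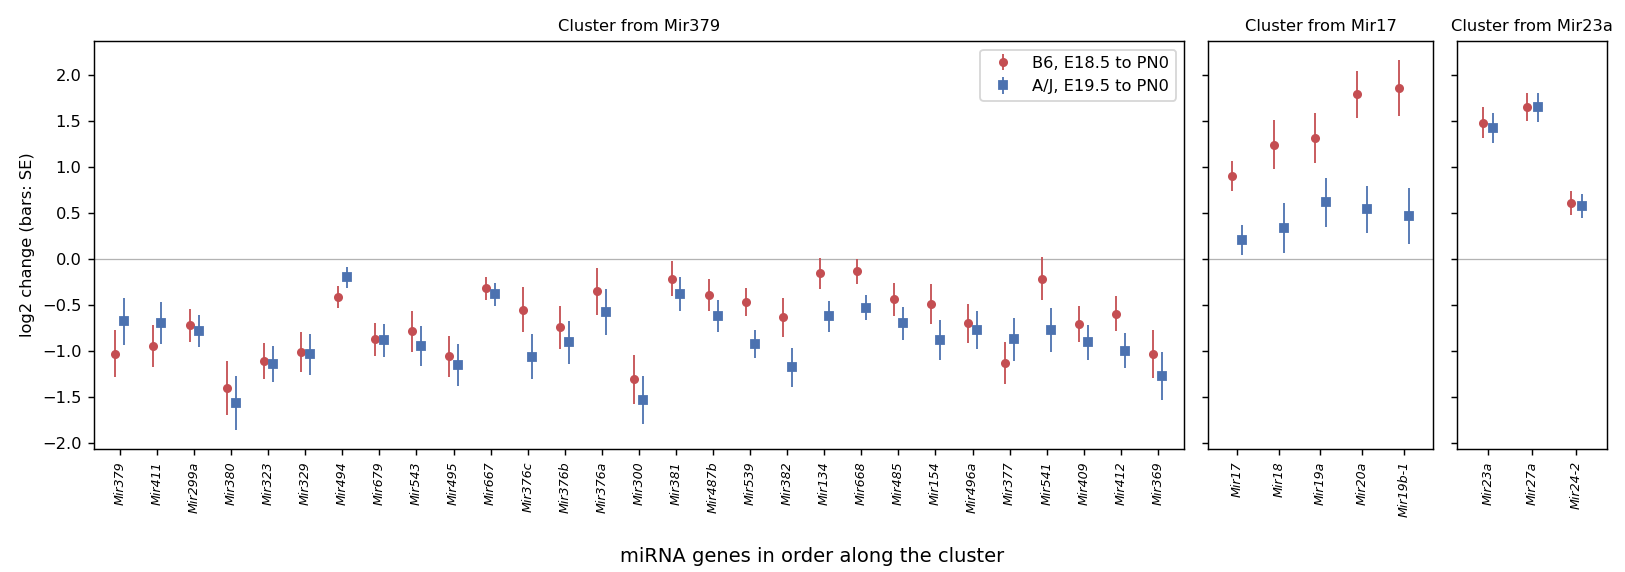
log2 change at birth of each measured miRNA gene, in order along its cluster, in B6 (circles, E18.5 to PN0) and A/J (squares, E19.5 to PN0), with SE. In the Mir379 cluster both strains lie below 0, in the Mir17 cluster the B6 changes are 0.90 to 1.86 and lie above those of A/J, and in the Mir23a cluster both lie above 0.

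The last comparison asked whether the B6 step differed from that of the second strain. From A/J E19.5 to PN0 462 genes rose (2.32%) and 339 fell (1.7%), 4.02% in all. From A/J E20.5 to PN0 420 rose (2.11%) and 335 fell (1.68%), 3.79% in all. The rises shared by B6 and A/J E19.5 to PN0 numbered 224, which is 36.8% of the B6 rises and 48.5% of the A/J rises. The shared falls numbered 182, or 27.1% and 53.7%, and 3 genes were called in opposite directions. The difference of the steps was itself called for 604 genes (3.03%), 211 with a B6 change above that of A/J (1.06%) and 393 with one below it (1.97%). The A/J step was some hours longer than the B6 step, and the part of those hours in the differences was not tested. Across 19938 genes, which are not independent replicates, the changes of both strains correlated at r = 0.588.

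In A/J 10 of 28 hypoxia targets fell and 2 rose from E19.5 to PN0, and 13 of 29 immediate early genes rose. From E20.5 to PN0 13 hypoxia targets fell and 1 rose, and 9 immediate early genes rose and 2 fell. The difference of the steps was called for 3 genes in each list. Neutrophil genes rose in both strains (12 of 19 in A/J from E19.5, and 12 from E20.5). The difference of the steps was called above for 7 of them: the B6 step exceeded that of A/J by 1.60 ± 0.20 for Mmp8 and 1.58 ± 0.26 for Il1r2. Before birth the array means over the list were higher in A/J, 6.44 to 6.84 at E19.5 against 5.74 to 6.00 in B6 at E18.5. At PN0 they were 7.34 to 7.45 in A/J and 7.20 to 7.33 in B6. A/J in turn had 5 erythroid genes that rose, among them Epb42 (1.05, against 0.03 in B6). Clock genes gave no call in A/J from E19.5 to PN0 and 5 called differences, all above. From A/J E20.5 to PN0, 3 of the 17 clock genes fell and none rose, with a median change of -0.22. Nr1d1 was at 7.63, 7.66 and 7.77 in A/J at E19.5 and at 8.14, 7.56 and 7.96 at PN0, so that the A/J groups overlapped where the B6 groups did not (difference of steps 1.40, adjusted p = 0.0026). Per1 changed by -0.02 in A/J against 1.11 in B6 (adjusted p of the difference = 0.0012). Of 17 glucocorticoid targets 4 rose and 3 fell in A/J from E19.5 to PN0. The list had 9 called differences, all above, including Klf9 (1.09). Its array means before birth were 9.26 to 9.49 in A/J at E19.5 and 8.84 to 9.09 in B6 at E18.5. At PN0 they were 9.44 to 9.66 in A/J and 9.82 to 9.89 in B6. Zbtb16, a zinc finger factor, rose by 0.78 in B6 (0.59 without PN0 replicate 2, no longer called) and fell by 0.73 in A/J (adjusted p of the difference = 0.0040).

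Genes of cholesterol synthesis and uptake had medians of opposite sign. In B6 5 of 20 genes fell and 1 rose (median -0.31), in A/J 6 rose and none fell (median 0.30), and the difference of the steps was called for 12 genes, 11 of them below. Idi1, isopentenyl diphosphate isomerase, was at 8.98, 8.47 and 8.92 in B6 at E18.5 and at 8.14, 7.91 and 8.06 at PN0. In A/J it was at 8.56, 8.60 and 8.57 at E19.5 and at 9.55, 9.60 and 9.64 at PN0, and the difference of the steps was -1.77 (adjusted p = 9.6e-07). Sqle, squalene epoxidase, changed by -0.42 ± 0.11 in B6 and by 1.03 in A/J, and Cyp51, lanosterol demethylase, by -0.31 ± 0.14 and 0.93. Insig1, which holds back the activation of the sterol response factors, and Stard4, a sterol carrier, had B6 changes of -0.84 ± 0.13 and -0.71 ± 0.07 and A/J changes of 0.00 and 0.03. The exception was Pmvk, phosphomevalonate kinase, which rose from 7.28, 7.04 and 7.28 to 9.86, 9.64 and 9.07 in B6 (2.32 ± 0.12) and by 0.97 in A/J. The number of falls in B6 was 3 with centred arrays or without PN0 replicate 2. In the fatty acid list 4 of 27 fell and 2 rose in B6, and all 4 that fell had risen up to E18.5. Of these 4, Insig1 is also in the cholesterol list and Fasn in the surfactant list. Scd2, a stearoyl-CoA desaturase, which also fell, had changes of -0.96 ± 0.07 in B6 and -0.99 in A/J.

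The zinc finger genes named Zfp were counted by symbol, after values had been seen. In B6 55 of 347 fell and 2 rose, with a median change of -0.17, and in A/J none fell from E19.5 to PN0 and 1 rose, with a median of -0.03. The difference was called for 28, all below. Centring each array on its median moved every B6 change up by 0.085, which is large beside a median of this size. Zfp322a was at 7.94, 8.20 and 8.01 in B6 at E18.5 and at 6.93, 6.62 and 6.58 at PN0, a 2.53-fold fall. In A/J it was at 8.13, 7.96 and 8.06 at E19.5 and at 7.99, 8.07 and 8.01 at PN0. Zfp60 was at 7.17, 7.38 and 7.41 and then at 6.26, 5.42 and 5.37 in B6, a 3.11-fold fall, and changed by -0.31 in A/J. A second probe set of Zfp60 also fell in B6, with a smaller change of -0.80. Zfp397 and Zfp780b had B6 changes of -1.18 ± 0.10 and -1.29 ± 0.16 and A/J changes of -0.11 and -0.20. Bmp4, Meox2 and Wnt2 had differences of the steps of -1.24, -1.49 and -0.83, and were not called in A/J.

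**Figure D5:**
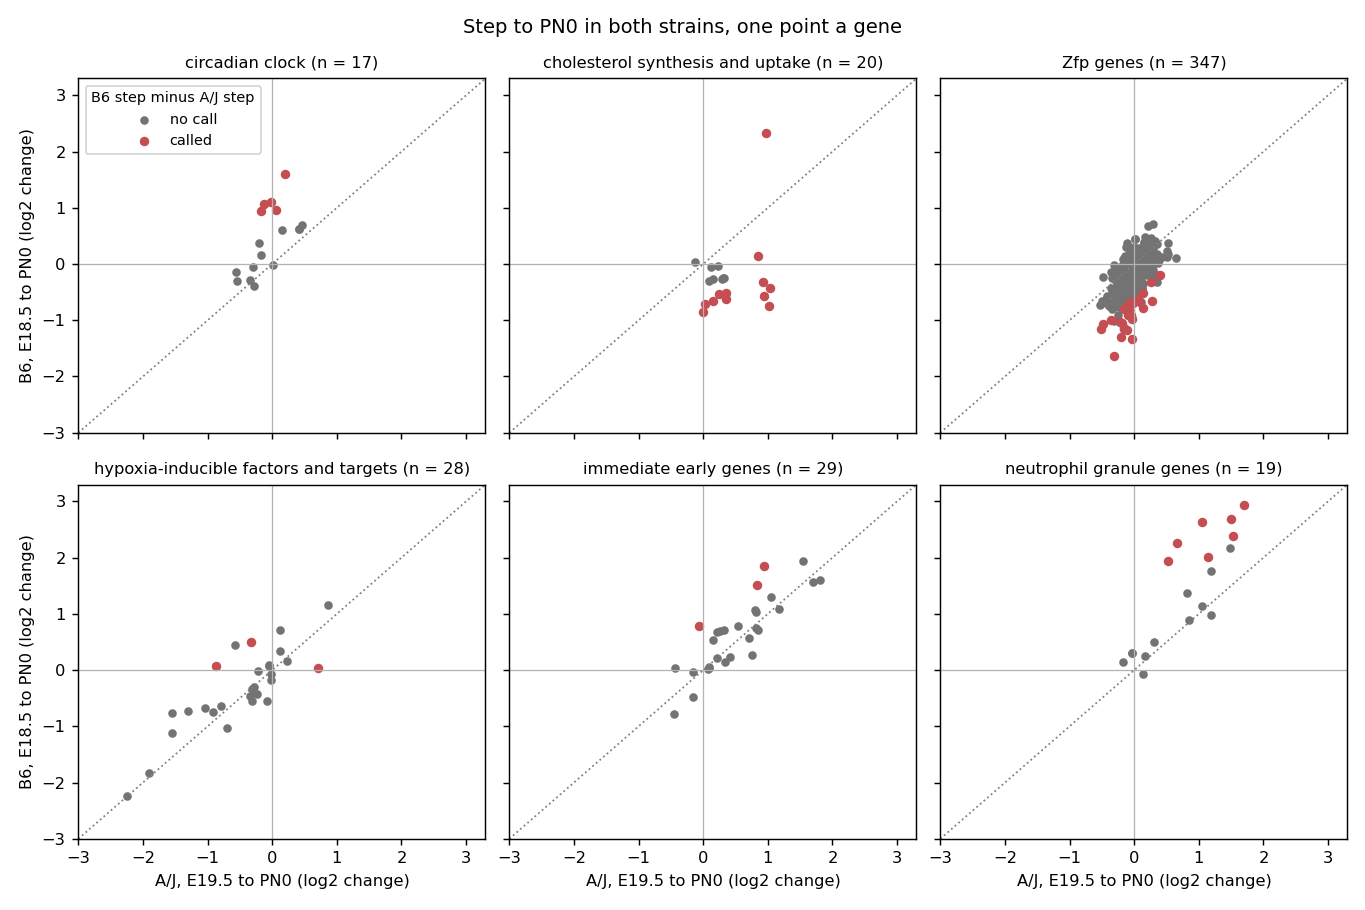
log2 change in B6 (E18.5 to PN0, vertical axis) against that in A/J (E19.5 to PN0, horizontal axis) for 6 gene lists, with a dotted line of equal change and red points where the difference of the steps was called. Red points lie above the line for 5 clock genes, and below it for 11 cholesterol genes and 28 Zfp genes.

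Promoters of the lists were searched for known motifs in the 250 bases before the RefSeq starts, on both strands, and the shares are descriptions of the sequence. Several lists hold known targets of the factors that bind these motifs, so the shares say nothing of the step at birth. The interferon-stimulated response element was in 39.3% of 28 interferon gene promoters and 2.98% of all 32851, and the E-box CACGTG in 30% of 20 clock gene promoters and 6.02% of all. The CArG box was in 17.2% of 29 immediate early promoters (1.47% of all) and TGACGTCA in 10.3% (1.55%). The CArG boxes lay in 5 promoters of only 2 genes, Egr2 and Zfp36, each start of a gene being counted, and among promoters of the genes called at birth each of both motifs was in 6.25% of 16. The glucocorticoid response element was in 8.33% of 24 promoters of its list (0.387%), TGACNNNGC in 23.5% of 34 antioxidant promoters (10.2%), TTATGTAA in 5% of the clock promoters (0.819%) and the heat shock element in 4.76% of 21 heat shock promoters (0.466%). Of 19 cholesterol promoters TCACNCCAC, a sterol response motif, was in 5.26% (1.05%), and the classical sterol regulatory element in none (0.0731%). ACGTG or GCGTG, a pair of motifs chosen after the values were seen and partly covered by the E-box, was in 83.8% of 37 hypoxia target promoters, 69.6% of 23 glycogen and 80.6% of 31 glycolysis promoters, and in 38.6% of all.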

How the data were processed

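Whole right lung RNA was hybridized to Affymetrix Mouse Gene 1.0 ST arrays. The deposited table holds log2 values that the authors made by RMA, with Expression Console 1.1 named in the submitters' processing notes. RMA includes a quantile step that brings arrays close to 1 distribution and can take out a shift shared by most genes, but over the tested probe sets the array medians of both groups still ranged from 6.86 to 6.98. Arrays 2 and 2b of B6 E18.5 were averaged. Of 35556 probe sets, 21789 with exactly 1 gene symbol were tested, of which 21698 matched RefSeq by gene ID; 1621 had several symbols and 12146 none. Symbols came from the platform annotation and can be old.

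Means of 12 groups (36 replicates, 24 residual degrees of freedom) were fitted with limma 3.58.1 in R 4.3.3, with empirical Bayes variances and Benjamini-Hochberg adjustment over all tested probe sets. Genes were called at a change of at least 1.5-fold with an adjusted p under 0.05. Counts are of 19938 genes, each read from its probe set with the highest mean. The difference of the steps was the B6 change minus the A/J change in the same fit. P-values measure the spread between litters.

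Genes named were the 12 largest rises and 12 largest falls whose replicates did not overlap, the 8 reversing genes of each direction by the smaller of both changes, and up to 4 called members of each list by size. Other genes were named after their values were seen. Members and lists were chosen with earlier results of these data known. The lists of glycogen, glycolysis, ribosome biogenesis and Zfp genes and the miRNA clusters were added after the values were seen. Promoters and miRNA sequences are those of RefSeq (GRCm38.p6).

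Simulated data held 21789 probe sets, each with independent normal noise of its spread within all 12 groups. In them 58.2% of 67 changes of 1.5-fold, 98.5% of 67 of 2-fold and 100% of 66 of 4-fold were called. Among unchanged probe sets there were 2 calls. The simulation had no deviations shared across the genes of a litter and few changed probe sets, so it does not give the error of the real comparison. Alternatives covered scaling, probe sets tested, dim probe sets, groups in the fit, empirical Bayes settings, thresholds, arrays 2 and 2b, the replicate block and leaving out each replicate. Figures were drawn with Python 3.11.15 and matplotlib 3.10.9.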

Additional observations from a re-analysis of the deposited data

Results flagged for a closer look

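The step to PN0 differed between B6 and A/J, by the contrast of the B6 change from E18.5 with the A/J change from E19.5 in limma, for 211 genes with a B6 change above that of A/J and 393 with one below it. Values below are the B6 log2 change minus the A/J log2 change for the genes named by the rule. The widest differences above 0 were those of Mmp8 (1.60), Il1r2 (1.58), Chil3 (1.42), Nr1d1 (1.40), Pmvk (1.35), Inmt (1.34), Ngp (1.23), Gclc (1.20), Retnlg (1.20) and Ciart (1.19). Next in size were Per1 (1.13), H2-Ab1 (1.09), Trp53inp1 (1.06), Tnfaip6 (0.99), Sgk1 (0.98), Nr1d2 (0.90), Klf4 (0.90), S100a9 (0.85), Cldn4 (0.83) and Lpin2 (0.74). Smaller differences above 0 were those of Cd55 (0.73), Gata2 (0.68), Nufip1 (0.64), Peg3 (0.63), Txnip (0.62), Hspb1 (0.59) and Uchl1 (0.58). The widest differences below 0 were those of Idi1 (-1.78), Meox2 (-1.49), Zfp60 (-1.32), Zfp322a (-1.31), Kctd21 (-1.31), Bmp4 (-1.24), Thap2 (-1.20), Zfp780b (-1.10), Zfp397 (-1.07) and Ppp1r3b (-1.04). They were followed by Akap5 (-1.02), Samd9l (-0.96), Vcam1 (-0.96), Fbn2 (-0.88), Hells (-0.85), Insig1 (-0.84), Wnt2 (-0.83), Kcnj2 (-0.78), Ppp1r3c (-0.76) and Nfe2l2 (-0.75). Smaller differences below 0 were those of Stard4 (-0.75), Pdpn (-0.72), Narf (-0.72), Tcf21 (-0.71), Pdia4 (-0.69) and Ddc (-0.63). The leading genes above 0 include neutrophil genes (Mmp8, Il1r2, Ngp and Retnlg) and clock genes (Nr1d1, Ciart and Per1), and those below 0 the sterol gene Idi1 and the fibroblast gene Meox2.

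Probe sets outside the comparisons changed too. Of 1621 probe sets with several gene symbols, 28 rose from E18.5 to PN0 in B6 (1.73%) and 41 fell (2.53%). Of 12146 probe sets with no symbol here, 314 rose (2.59%) and 196 fell (1.61%). They carry no gene name here, so no gene is given for them.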

How the results depend on the processing

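Results changed most with the threshold. Without the limit on fold, 2499 genes rose and 2888 fell from E18.5 to PN0, 815 rose and then fell, and 616 fell and then rose. At that threshold 4084 and 3935 genes were called from A/J E19.5 and E20.5 to PN0, 1577 for the difference of the steps, and 2831, 3047 and 4765 in the B6 steps from E15.5, E16.5 and E17.5 to the next day. At 2-fold changes with an adjusted p under 0.01, the same counts were 157, 90, 22, 5, 155, 158, 69, 120, 88 and 156. With each array centred on its median 869 genes rose, 462 fell, 107 rose and then fell, and 74 fell and then rose. With the trend to E17.5, 126 genes rose and then fell and 50 fell and then rose. Leaving out 1 replicate of B6 E18.5 or PN0 at a time gave 533 to 709 rises, 595 to 798 falls, 123 to 180 and 41 to 63 reversing genes, 483 to 696 differences of the steps and 723 to 1191 calls from E17.5 to E18.5. The other counts, which do not use those litters in their contrasts, were 799 to 802 and 753 to 755 for A/J E19.5 and E20.5 to PN0, and 551 to 552 and 583 to 586 for the earlier B6 steps.

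Replicate numbers did not pair the samples: deviations from the group means correlated between same-numbered samples of E18.5 and PN0 at -0.0761, -0.1114 and 0.048. With the replicate number as a block 607 genes rose, 673 fell, 594 differed between the strains, and 150 and 47 reversed, and the block changed no call of a named gene. Of 247 called changes of named genes, 20 lost the call with centred arrays, 15 after quantile normalization, 30, 13 and 17 without E18.5 replicate 2, 1 or 3, and 8, 20 and 19 without PN0 replicate 1, 2 or 3. The call was lost by 17 when array 2 was left out and by 7 when array 2b was. No called change of a named gene turned its direction under any of these settings, and the cause of the lost calls was not tested.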

Other observations

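Some gene groups outside the main comparisons also gave calls. Of 28 xenobiotic enzyme genes 6 rose and 1 fell from E18.5 to PN0, with a median change of 0.18, and 5 of the 6 rises are of genes also counted in other lists. Of 19 complement genes 2 rose and none fell (median 0.28), and of 25 genes of vessel tone 4 rose and none fell (median 0.00). In the mast and lymphoid list 2 of 20 rose. Of 8 MHC class II genes 2 rose, but none was called without E18.5 replicate 2.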
